A study of Homo sapiens with 6 samples.

Results

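The enzymes that move electrons from NADPH or NADH to heme proteins, lipids and oxygen were followed in U87MG cells, an established human glioblastoma line, after treatment with RSL3. The set holds 9 genes chosen by symbol, POR, CYB5R1, CYB5R3, CYB5A, CYB5B, CYP1A1, CYP1B1, NOX4 and CYBA, of 65988 gene identifiers in the count files. The comparison is between WT cells given vehicle, called control, and WT cells given RSL3 at 2 µM, with 3 libraries on each side. RSL3 is an inhibitor of the lipid peroxidase GPX4 and starts ferroptosis, an iron-dependent cell death by lipid peroxidation. The sample labels give no time, and the legend of the study gives 24 h. One cell line was used. The study describes its replicates in general as biologically independent experiments or samples, and the sample labels do not say which cultures the libraries came from, so p-values measure the spread between these libraries, which may be technical.

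POR is a flavoprotein of the endoplasmic reticulum that hands electrons from NADPH to cytochrome P450 enzymes, heme oxygenase and squalene monooxygenase. CYB5R1 and CYB5R3 take electrons from NADH and pass them to the cytochromes b5 CYB5A, of the endoplasmic reticulum, and CYB5B, of the outer mitochondrial membrane. When POR and CYB5R1 pass electrons to oxygen instead, hydrogen peroxide forms, and these enzymes are known for promoting lipid peroxidation in ferroptosis. CYP1A1 and CYP1B1 are P450 monooxygenases known as targets of the aryl hydrocarbon receptor (AHR). NOX4 is an NADPH oxidase that releases mainly hydrogen peroxide, and CYBA (p22phox) is the membrane subunit that it needs.

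Poly(A) RNA was sequenced, and total counts per library ranged from 27813462 to 43306335. The values below are TMM-normalized counts on the scale of an average library. Of 8 glial and glioma markers, 5 reached 10 counts in a library. VIM and CD44 were abundant, GFAP lay between 2.79 and 4.67 CPM (counts scaled to a common library total), AQP4 was at 0, and S100B and SOX2 reached at most 1 and 2 counts. The summed level of the 8 markers was 2713 to 2769 CPM in control and 2157 to 2269 CPM in treated libraries. VIM and CD44 made up this difference, whereas GFAP (2.79 to 3.47 CPM in control, 3.57 to 4.67 CPM in treated libraries) and OLIG2 (8.50 to 8.88 and 8.98 to 9.92 CPM) were higher in all treated libraries. Sums of 4 markers each for other cell types were at most 2.87 CPM (endothelial), 3.83 CPM (epithelial), 0.469 CPM (immune) and 35.9 CPM (neuronal, mostly SYT1), with CD3E and AIF1 at 0. The endothelial sum, mostly VWF, was 1.96 to 2.87 CPM in control and 0.88 to 1.49 CPM in treated libraries. VWF made up this difference, at 1.778 to 2.595 CPM in control and 0.516 to 1.257 CPM in treated libraries. PECAM1, CDH5 and CLDN5 overlapped between the groups and stayed under 10 counts in every library. The lower endothelial sum is thus a difference in VWF alone, not in the endothelial markers as a set. The part of these shifts in the results below was not tested, and fewer cells of a kind cannot be told apart from less RNA per cell in bulk RNA.

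All 9 genes passed the filter on low counts. POR, CYB5R1 and CYBA were upregulated in RSL3-treated cells and CYB5R3, CYB5A, CYB5B and CYP1B1 were downregulated, at an adjusted p under 0.05 in edgeR's quasi-likelihood test. CYP1A1 and NOX4 did not pass. These 7 calls are 77.8% of the set, against 25.6% of the 16105 genes tested (12.9% upregulated and 12.7% downregulated). The set was chosen with results of these data known, so the share is a description. The 7 called genes had at least 563 raw counts in every library, whereas CYP1A1 and NOX4 had 13 to 55. The 25.6% also covers genes of low counts, and a share among genes of like counts was not computed. The median log2 fold change was 0.11 over the 9 genes and -0.004 over all genes tested. In 8 of the 9 genes the values of the groups did not overlap, against 38.6% of all genes tested.

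**Figure D1:**
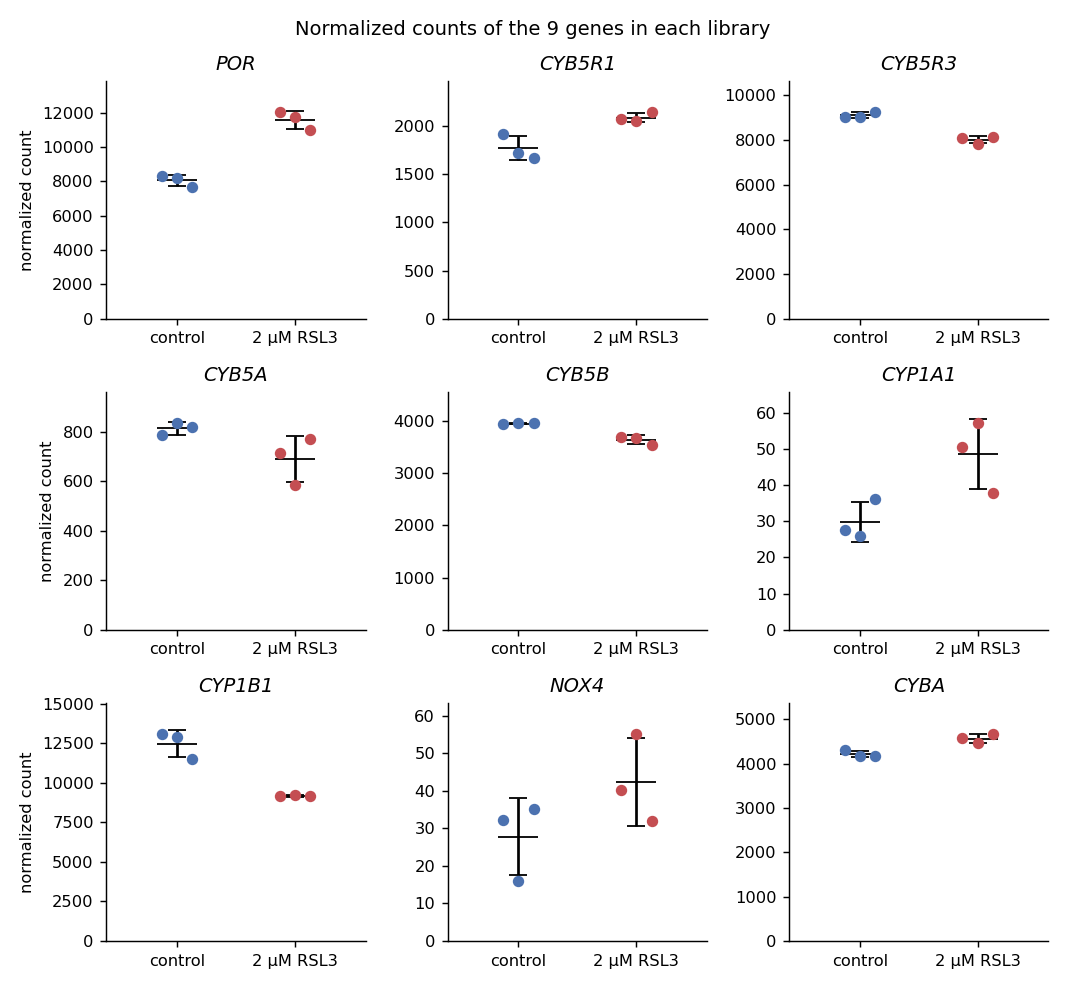
Normalized count (y axis, from 0) of each of the 9 genes in the 3 control and the 3 RSL3-treated libraries; points are libraries, horizontal bars are means and error bars are SD. The groups overlap only in NOX4, and the largest gap is in POR, where the highest control library is at 8303 and the lowest RSL3-treated library at 10988.

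POR (ENSG00000127948) lies on the plus strand of chromosome 7 of GRCh38, from 75899200 to 75986855, and its canonical transcript has 16 exons. Its normalized counts were 8303, 8182 and 7665 in control replicates 1, 2 and 3, and 12032, 11722 and 10988 in RSL3 replicates 1, 2 and 3. Every RSL3-treated library was above every control library. The mean rose from 8050 ± 339 (SD, n = 3) to 11581 ± 536 (SD, n = 3), a log2 fold change of 0.52 (95% interval 0.45 to 0.60, edgeR adjusted p = 1.07e-09). This was number 60 of all genes tested when ordered by p, and number 337 of the 2082 upregulated genes when ordered by fold change. Of its 6222 exon bases, 98 (1.58%) are shared with MIR4651 and TMEM120A in the GENCODE v44 annotation. Unstranded counting cannot assign reads there to 1 gene, and HTSeq-count by default leaves such reads out.

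CYB5R1 (ENSG00000159348, minus strand of chromosome 1, 202961873 to 202967275, 9 exons) moved in the same direction with a smaller change. Control replicates 1, 2 and 3 held 1916, 1726 and 1673 normalized counts, and RSL3 replicates held 2071, 2053 and 2147. The control library nearest to the treated group was replicate 1. The log2 fold change was 0.24 (95% interval 0.14 to 0.34, edgeR adjusted p = 0.000849). It lay between 0.20 and 0.30 with each library left out in turn.

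CYB5R3 (ENSG00000100243, minus strand of chromosome 22, 42615730 to 42720870, 9 exons), the more abundant of the NADH reductases, went the other way. Its normalized counts were 9040, 9027 and 9250 in control cells and 8078, 7823 and 8136 in RSL3-treated cells. The groups did not overlap. The log2 fold change was -0.18 (95% interval -0.25 to -0.12, edgeR adjusted p = 8.51e-05), a fold of 0.88. A4GALT and 2 other annotated genes share 10.6% of its exon bases.

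Within each library, the reductases were also compared as ratios of raw counts with 0.5 added, which need no scaling between libraries. In control cells the log2 ratio of CYB5R1 to CYB5R3 was -2.36 ± 0.12 (SD, n = 3). After RSL3 it was -1.94 ± 0.02 (SD, n = 3), higher by 0.43. The log2 ratio of POR to CYB5R1 was higher by 0.28, from 2.19 ± 0.07 (SD, n = 3) to 2.47 ± 0.10 (SD, n = 3). For both ratios the groups did not overlap, and the exact two-sided permutation test gave p = 0.10, the smallest that 3 against 3 libraries allow, or 0.167 adjusted over the 5 ratios computed. At this size no ratio can reach 0.05.

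**Figure D2:**
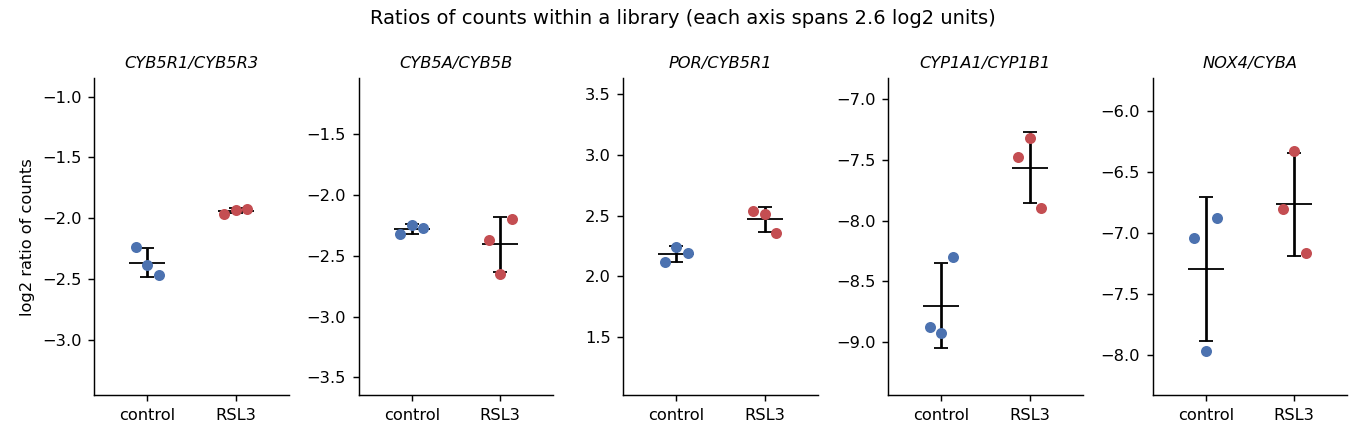
Log2 ratio of raw counts (y axis, log2 units, each panel spanning 2.6 units) for 5 pairs of genes in the 3 control and 3 RSL3-treated libraries; points are libraries, bars are means and error bars are SD. The groups do not overlap for CYB5R1/CYB5R3, POR/CYB5R1 and CYP1A1/CYP1B1, and they overlap for CYB5A/CYB5B and NOX4/CYBA.

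The electron carriers downstream of the NADH reductases are encoded by CYB5A (ENSG00000166347, minus strand of chromosome 18, 74250846 to 74291973) and CYB5B (ENSG00000103018, plus strand of chromosome 16, 69398402 to 69466264), each with 5 exons. The 250 bases before their start sites in RefSeq (GRCh38.p14) are shown because the genes were downregulated together; capitals mark CCAAT or its reverse complement ATTGG, and each sequence reads 5′ to 3′ along its gene, from chr18:74291964-74292213 on the minus strand for CYB5A and from chr16:69424369-69424618 on the plus strand for CYB5B.
CYB5A: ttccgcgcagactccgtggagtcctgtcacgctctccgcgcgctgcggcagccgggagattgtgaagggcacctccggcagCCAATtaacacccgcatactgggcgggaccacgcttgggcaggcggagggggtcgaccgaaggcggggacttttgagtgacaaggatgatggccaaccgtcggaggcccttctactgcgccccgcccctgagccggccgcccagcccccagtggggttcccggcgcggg
CYB5B: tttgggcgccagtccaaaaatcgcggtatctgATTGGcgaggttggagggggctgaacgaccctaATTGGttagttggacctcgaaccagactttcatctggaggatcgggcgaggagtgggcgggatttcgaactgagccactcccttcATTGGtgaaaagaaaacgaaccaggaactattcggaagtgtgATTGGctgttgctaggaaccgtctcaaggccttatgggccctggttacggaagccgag
CYB5B held 4 matches, all on the opposite strand, beginning 218, 185, 100 and 58 bases before its RefSeq start. CYB5A held 1 match, beginning 169 bases before its RefSeq start. The CYB5B window lies inside the GENCODE span given above, which begins at 69398402. The RefSeq start used here is therefore not the start of that span. Among 35116 RefSeq windows of this length, 32.0% held CCAAT on either strand and 0.874% held at least 4 matches. CCAAT was also found 2 times in the CYP1A1 window, where it is not in capitals below, and 2 times in a NOX4 window. Neither of these genes was downregulated. No CYB5R3 window held it, though CYB5R3 was downregulated, and the CYBA window did not hold it either.

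CYB5B, the mitochondrial form, had 3939, 3955 and 3951 normalized counts in control cells, a coefficient of variation of 0.209%. This is below the 1.55% from counting error alone, so it cannot be read as low variation of the gene. In RSL3-treated cells it had 3695, 3674 and 3536, all lower than the control libraries. The change was small, a log2 fold change of -0.12 (95% interval -0.19 to -0.05, edgeR adjusted p = 0.0110), and without RSL3 replicate 3 the adjusted p was 0.0630. Another annotated gene, ENSG00000260108, covers 24.1% of the exon bases of CYB5B.

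CYB5A, the form of the endoplasmic reticulum, had 786, 834 and 818 normalized counts in control cells and 714, 585 and 769 in RSL3-treated cells. The lowest treated library was replicate 2, and the coefficient of variation was 13.7% among treated libraries against 3.02% among controls. The log2 fold change was -0.24 (95% interval -0.40 to -0.07, edgeR adjusted p = 0.0340). This call rested on few libraries. Without RSL3 replicate 2 the log2 fold change was -0.13 and the adjusted p was 0.255, and without control replicate 1, 2 or 3 the adjusted p was 0.0533, 0.0889 or 0.0811. DESeq2 with 1 surrogate variable gave an adjusted p of 0.0655. The log2 ratio of CYB5A to CYB5B differed by -0.13 between the groups, which overlapped (exact permutation p = 0.50, two-sided).

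The P450 genes of the set differed widely in level. CYP1B1 (ENSG00000138061, minus strand of chromosome 2, 38066973 to 38109902, 3 exons) was abundant, with 13067, 12878 and 11491 normalized counts in control cells and 9137, 9250 and 9142 in RSL3-treated cells. The treated libraries had a coefficient of variation of 0.693%, below the 1.07% from counting error alone, and all were below the lowest control library. Its log2 fold change was -0.44 (95% interval -0.52 to -0.36, edgeR adjusted p = 2.04e-08), the largest decrease among the 9 genes and number 490 of the 2041 downregulated genes by fold change. CYP1B1-AS1, RMDN2 and RMDN2-AS1 share 783 of its 6024 exon bases.

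CYP1A1 (ENSG00000140465, minus strand of chromosome 15, 74719542 to 74725536, 7 exons) was close to the detection limit, at 21 to 55 raw counts per library. Its normalized counts were 27.5, 25.8 and 36.1 in control cells and 50.6, 57.1 and 38.0 in RSL3-treated cells. The treated libraries were above the controls by a narrow margin, with RSL3 replicate 3 nearest to control replicate 3. The log2 fold change of 0.69 (95% interval 0.11 to 1.27) did not pass in edgeR's test (adjusted p = 0.0735), and without RSL3 replicate 3 it was 0.85 with an adjusted p of 0.0436. The log2 ratio of CYP1A1 to CYP1B1 was -8.70 ± 0.35 (SD, n = 3) without RSL3 and -7.57 ± 0.29 (SD, n = 3) with it. It differed by 1.13, and the groups did not overlap (exact permutation p = 0.10, two-sided, the smallest possible).

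The 250 bases before the CYP1A1 start site are shown because CYP1A1 is the textbook gene of AHR induction. They run along the minus strand of chr15:74725529-74725778 (GRCh38.p14, RefSeq), and capitals mark GCGTG, the core letters that AHR and its partner ARNT recognise, and the TATA box letters TATAAA.
CYP1A1: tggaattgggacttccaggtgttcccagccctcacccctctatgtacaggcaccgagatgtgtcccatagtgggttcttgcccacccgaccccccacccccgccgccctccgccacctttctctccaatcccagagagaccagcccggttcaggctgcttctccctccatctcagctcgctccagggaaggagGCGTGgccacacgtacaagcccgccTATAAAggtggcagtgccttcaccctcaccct
GCGTG begins 57 bases and TATAAA 32 bases before the start, both in the direction of the gene. In all windows of this length, 32.2% held GCGTG and 10.7% held TATAAA on either strand. The longer form TNGCGTG, found in 4.52% of windows, and the NRF2 motif TGACNNNGC, found in 10.9%, were also searched on both strands; TNGCGTG overlaps GCGTG. RefSeq windows were matched for 6 of the 9 genes (10 windows), and POR, CYB5R1 and CYP1B1 were not among them. The CYB5R3 and NOX4 windows, like that of CYB5B, lie inside the GENCODE spans of their genes. GCGTG was also found once in the CYBA window, once in 1 of the 3 CYB5R3 windows and 2 times in the CYB5A window, in genes that were upregulated and downregulated. None of the 10 windows held TNGCGTG, and TGACNNNGC was found in 1 of the 3 CYB5R3 windows only. Bases farther from the start were not searched, so the absence of TNGCGTG holds for these windows only. Binding of AHR to any of these letters was not measured.

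NOX4 (ENSG00000086991, minus strand of chromosome 11, 89324353 to 89498187, 18 exons) was as scarce as CYP1A1. It had 13 to 53 raw counts per library. Its normalized counts were 32.2, 16.0 and 35.1 in control cells and 40.2, 55.1 and 32.0 in RSL3-treated cells, and the groups overlapped. The 13 counts of control replicate 2 have an exact Poisson 95% interval of 6.92 to 22.2, which covers counting error only. The log2 fold change was 0.57 with a 95% interval from -0.09 to 1.24 (edgeR adjusted p = 0.212), so the interval includes no change. The coefficient of variation between libraries was 37.1% in control and 27.6% in RSL3-treated cells, against 18.1% and 15.8% from counting error alone.

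CYBA (ENSG00000051523, minus strand of chromosome 16, 88643275 to 88651083, 6 exons), the partner of NOX4 and of other NADPH oxidases, was abundant. Control cells had 4303, 4168 and 4176 normalized counts and RSL3-treated cells had 4570, 4453 and 4659, with no overlap. The increase was the smallest called in the set, a log2 fold change of 0.11 (95% interval 0.04 to 0.18, edgeR adjusted p = 0.0151). Without RSL3 replicate 1 the adjusted p was 0.0504 and without RSL3 replicate 3 it was 0.0509. The log2 ratio of NOX4 to CYBA overlapped between the groups (difference 0.53, exact permutation p = 0.40, two-sided).

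**Figure D3:**
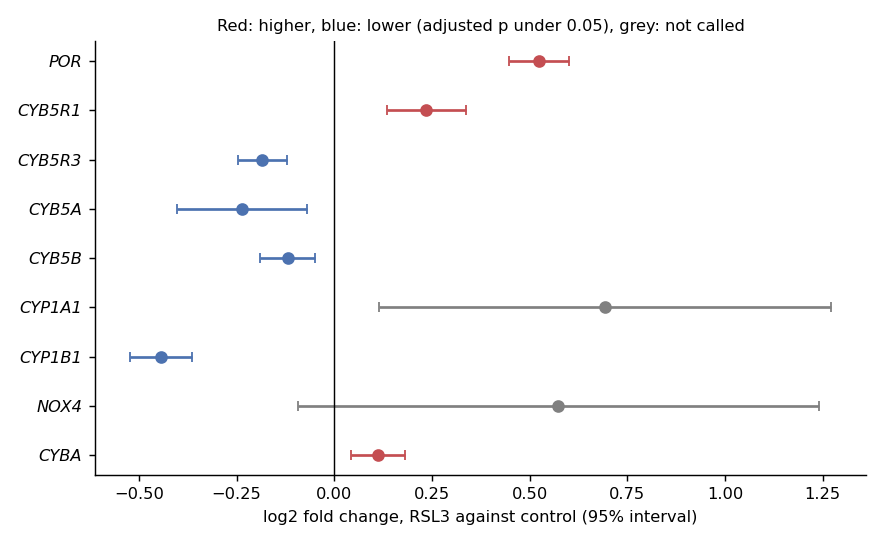
Log2 fold change of each gene (x axis, log2 units, RSL3 against control) with its 95% interval, derived from edgeR's F statistic. Red is upregulated, blue is downregulated and grey did not pass. POR at 0.52 and CYP1B1 at -0.44 have narrow intervals, and CYP1A1 and NOX4 have the widest ones.

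Levels between genes were compared per length, as RPKM, the count divided by the length of the canonical transcript and by the library size. In control cells CYBA had the highest level at 179 ± 3.21 RPKM (SD, n = 3). POR followed at 96.5 ± 4.07, CYB5R3 at 91.6 ± 1.26 and CYP1B1 at 70.1 ± 4.83 RPKM (SD, n = 3 each). CYB5R1 at 32.0 ± 2.30, CYB5B at 27.2 ± 0.0567 and CYB5A at 7.38 ± 0.223 RPKM (SD, n = 3 each) lay lower. CYP1A1 at 0.336 ± 0.0617 and NOX4 at 0.191 ± 0.0708 RPKM (SD, n = 3 each) were the lowest. POR and CYB5R3 were the only neighbours in this order whose control libraries overlapped, at 91.9 to 99.5 and 90.8 to 93.0 RPKM.

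In RSL3-treated cells POR, at 139 ± 6.43 RPKM (SD, n = 3), stood apart from CYB5R3, at 80.6 ± 1.68 RPKM (SD, n = 3). The ratio of the POR level to the CYB5R3 level was 1.09, 1.08 and 0.988 in control replicates 1, 2 and 3 and 1.78, 1.79 and 1.61 in RSL3 replicates. CYP1B1 exceeded CYP1A1 by 159 to 249 times in control libraries and by 80.8 to 120 times in treated libraries. The order depends on the length used. Per kilobase of all annotated exons CYP1B1 was highest in control cells, at 60.7 RPKM, with POR at 37.9, CYBA at 29.7 and CYB5R3 at 25.5 RPKM.

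**Figure D4:**
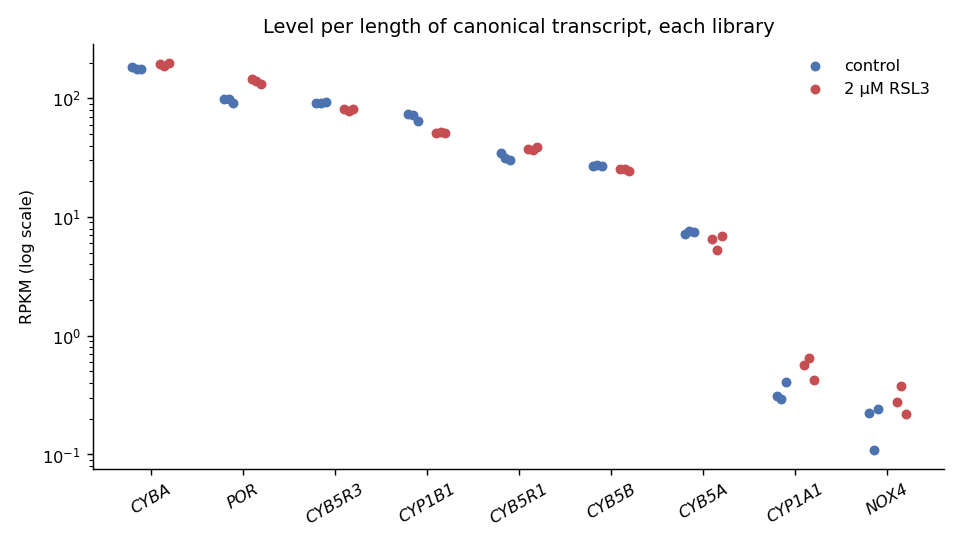
Level of the 9 genes in RPKM per canonical transcript (y axis, log scale), ordered by the control mean; each point is 1 library, blue for control and red for RSL3. Control libraries of POR and CYB5R3 overlap between 91.9 and 93.0 RPKM, while the RSL3-treated libraries of POR, at 132 to 144 RPKM, lie above those of CYB5R3.

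The genes whose pattern was most like POR were ranked by Pearson's r of log2 normalized counts over the 6 libraries, among 11463 genes with a mean of at least 100. They were C1GALT1, a glycosyltransferase (r = 0.999), DUSP5, a phosphatase of ERK (0.999), SQSTM1, the autophagy receptor p62 (0.999), SLC48A1, a heme transporter (0.999), and RNF185, a ubiquitin ligase (0.998). Their log2 fold changes were 0.26, 0.41, 0.55, 0.59 and 0.15, against 0.52 for POR. In all, 746 genes had r over 0.95. The 6 points fall into a control and a treated group, and these values are a description.

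Other genes of electron transfer were counted in 7 lists. Of their 128 genes, 66 passed the filter, and 11 were upregulated and 12 downregulated, 34.8% against 25.6% of all genes tested. By list, the share called was 66.7% for AHR with its partners and targets and 50% for electron acceptors. It was 45.5% for b5 reductases and b5 domains and 42.9% for diflavin reductases and carriers. For other P450 genes, lipoxygenases with cyclooxygenases, and NADPH oxidases it was 20%, 16.7% and 9.09%. Among enzymes that accept electrons from POR or cytochrome b5, 8 of 10 were tested, 1 was upregulated and 3 were downregulated, with a median log2 fold change of -0.11. The upregulated gene was HMOX1, the inducible heme oxygenase, from 30317 ± 1761 to 58473 ± 6101 normalized counts (SD, n = 3 each). The downregulated genes act in lipid synthesis. SCD, the stearoyl-CoA desaturase that draws on cytochrome b5, had a log2 fold change of -0.72 (edgeR adjusted p = 1.64e-12). The squalene monooxygenase SQLE, which depends on POR, had -0.43 (edgeR adjusted p = 1.73e-07), and the sterol oxidase MSMO1 had -0.38 (edgeR adjusted p = 3.22e-07). CYP51A1, the P450 of sterol synthesis, had -0.10 and did not pass (edgeR adjusted p = 0.272), with 74.1% of its exon bases shared with other genes.

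Among other cytochrome b5 reductases and proteins with a b5 domain, 11 of 13 were tested, with 2 upregulated and 3 downregulated and a median of -0.03. The fatty acid desaturases FADS1 and FADS2, which carry their own b5 domain, had log2 fold changes of -0.20 and -0.25. The heme-binding protein PGRMC1, a partner of P450 enzymes, had 0.17, its relative PGRMC2 had -0.10, and the reductase CYB5R4 had 0.16. The adjusted p of these 5 genes in edgeR was at most 0.0271. CYB5R2 had too few counts to be tested.

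AHR and its partners and targets moved in both directions, with 3 upregulated and 3 downregulated of 9 tested (12 listed, median -0.02). AHR itself went from 6716 ± 188 to 5012 ± 87.0 normalized counts (SD, n = 3 each), a log2 fold change of -0.42 (edgeR adjusted p = 4.21e-09). Its partner ARNT had -0.19 (edgeR adjusted p = 0.0137). The target genes TIPARP (0.56), AHRR (0.37), which encodes the AHR repressor, and NQO1 (0.34), a quinone reductase, were upregulated, opposite to CYP1B1. CYP1A1, also a target, was higher (0.69) but did not pass. TIPARP shares no exon base with another gene, whereas the shared part of the exons was 58.7% in AHRR, 35.2% in AHR and 19.4% in NQO1.

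The NADPH oxidase list, with 11 of 20 genes tested, had a median log2 fold change of 0.01, and 9.09% of its tested genes were called. NOX1 had 11 to 20 raw counts per library and did not pass (edgeR adjusted p = 0.936). RAC1, the GTPase that serves several oxidases, had 11069 ± 228 and 10957 ± 24.4 (SD, n = 3 each) and did not pass (edgeR adjusted p = 0.769).

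In the list of diflavin reductases, related flavoproteins and electron carriers, 7 of 11 genes were tested, with a median of 0.13. MTRR (0.27) and TYW1 (0.22), which is not a diflavin reductase, were upregulated and FDXR (-0.16) was downregulated. MTRR, methionine synthase reductase, shares the diflavin architecture of POR, and FDXR passes electrons by way of a ferredoxin to mitochondrial P450 enzymes. NOS1 was not tested for low counts. Of 54 other P450 genes 15 passed the filter, of which CYP4F11 (0.95) and CYP20A1 (0.15) were upregulated and CYP4V2 (-0.23) was downregulated, with a median of 0.0001. CYP4F11, a fatty acid hydroxylase, had 54.7 ± 15.6 and 107 ± 20.4 normalized counts (SD, n = 3 each). CYP11A1 had too few counts to be tested.

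Of the lipoxygenases and cyclooxygenases, which oxidise polyunsaturated lipids directly, and their partners, 6 of 10 genes were tested, with a median of -0.07. ALOX5 had no count in any library, and no lipoxygenase or cyclooxygenase passed. The one call was PEBP1, a protein that binds lipoxygenases, which had a log2 fold change of -0.21 (edgeR adjusted p = 3.93e-05).

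**Figure D5:**
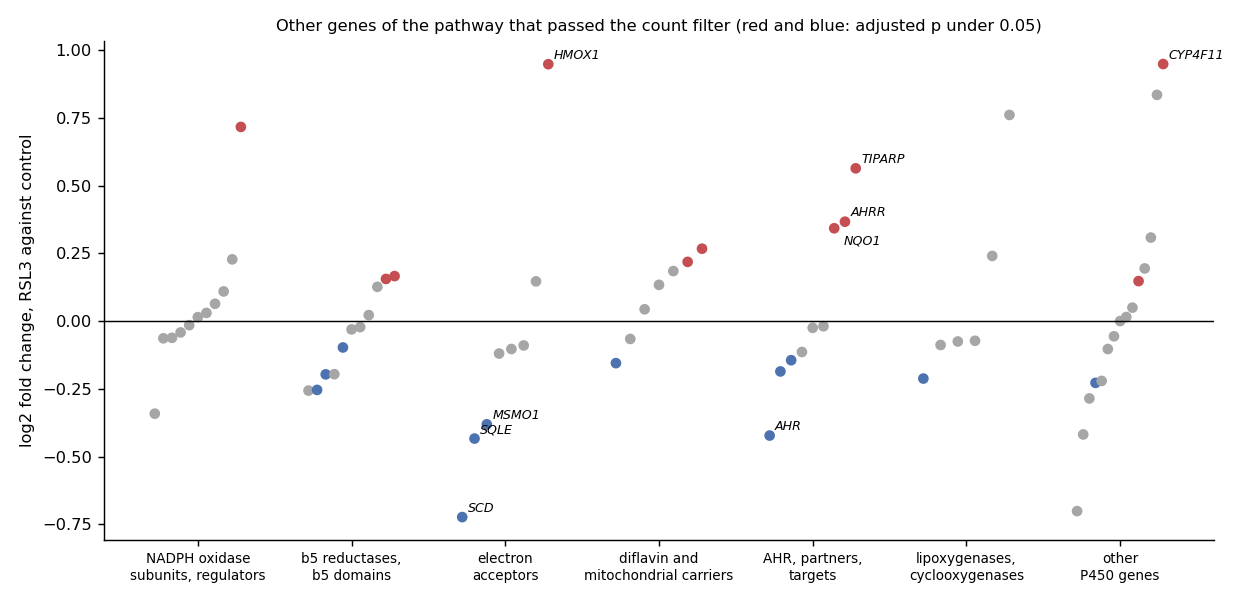
Log2 fold change (y axis, log2 units, RSL3 against control) of each tested gene in 7 lists of the pathway, ordered by size within a list; red and blue points passed the test and grey points did not. HMOX1 and CYP4F11 are highest at 0.95 and SCD is lowest at -0.72.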

How the data were processed

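Poly(A) RNA of U87MG cells was sequenced as paired-end reads (3 control and 3 RSL3-treated libraries). Per the study's methods and the submitters' processing notes, the authors trimmed reads with Trimmomatic 0.36 and fastp, used HISAT2 for alignment to GRCh38.p4, and counted exons per gene with HTSeq-count 0.6.1p1 without strand. The authors deposited whole-number counts of reads per Ensembl gene, not normalized; the annotation release is not given in the sources used here. Symbols came from a table of gene names (56434 of 65988 identifiers), and coordinates, lengths and exon overlaps from GENCODE v44.

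The counts went into edgeR 4.0.16 (R 4.3.3), with filterByExpr at a minimum count of 10 and TMM scaling. Its quasi-likelihood test compared the groups, with Benjamini-Hochberg adjusted p under 0.05 as the call. Total counts ranged from 27813462 to 43306335. The study itself used DESeq2 after surrogate variable analysis; DESeq2 1.42.0 with 0 or 1 surrogate variable (sva 3.50.0) was an alternative. The others were DESeq2's size factors, total counts, no filter, at least 10 counts in every library, the replicate number as a block, and each library left out. The 95% intervals are not returned by edgeR. They were derived from its log2 fold change, F statistic and degrees of freedom, and are approximate. The scripts were tested on simulated data.

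The members and the lists were chosen with earlier results of these data known. Genes named are the 9 members and, in each list, the first gene listed and up to 4 called genes with the smallest p; others named (CYP51A1, PGRMC2, ARNT, RAC1) were chosen after their values were seen. Some results, which need items withheld for evaluation, are not reported here.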

Additional observations from a re-analysis of the deposited data

How the results depend on the processing

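POR, CYB5R1, CYB5R3 and CYP1B1 kept their direction and their call in all 13 alternatives. Over the 9 genes and 13 alternatives, no direction was reversed, 8 of 117 values lost the call, 6 of them by leaving out 1 library for CYB5A or CYBA, and 1 gained it. When 1 library at a time was left out, the number of genes of the set called was 6 in each fit, though not always the same genes. Between 20 and 24 genes of the lists and between 3081 and 3924 of all genes were called. The differences in log2 ratio then lay between 0.37 and 0.49 for CYB5R1/CYB5R3, 0.25 and 0.34 for POR/CYB5R1, 1.01 and 1.33 for CYP1A1/CYP1B1, -0.23 and -0.01 for CYB5A/CYB5B, and 0.19 and 0.74 for NOX4/CYBA.

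The labels give the groups the same replicate numbers but no shared culture or day. Deviations from the group means of same-numbered libraries correlated at r = 0.06, 0.11 and 0.19 over 11464 genes, so not every pair passed 0.1, though every library correlated best with its own number. With the replicate block, edgeR called 4633 genes, against 4123 without it, and 7 of the 9 genes, with a log2 fold change of 0.52 for POR (adjusted p = 4.66e-12). CYP1A1 and NOX4 had 13 to 55 counts per library, which gives a counting error of 14.8% to 18.1% of their group means, and NOX4 varied more than that between libraries.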

Other observations

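HMOX2, the constitutive heme oxygenase and an electron acceptor of POR, had only 2 to 12 raw counts per library and was not tested, while HMOX1 had 30317 ± 1761 normalized counts (SD, n = 3) in control cells. HMOX2 was chosen after its values were seen. The annotation release used for counting is not given in the sources used here, so whether other genes overlap HMOX2 in it is unknown, and its low counts cannot be read as low expression.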
